A study of Caenorhabditis elegans with 34 samples.

Results

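Dissociated, unsorted cells of third-stage Caenorhabditis elegans larvae (L3) were compared with whole L3 larvae, in order to see which transcripts a cell suspension no longer holds in the proportions of the animal. The comparison rests on 6 libraries, chosen by their labels: 3 of dissociated L3 cells and 3 of whole L3 larvae, out of 30 libraries of the series with a column in the count table and 34 labelled ones. Dissociated cells were 70 µl of cell suspension from larvae given 2 min of SDS-DTT, 30 min of pronase E and 100 strokes of a dounce pestle, and whole larvae were 10 µl of packed worm pellet with no such treatment. A further 6 L3 libraries, 3 of sorted GFPplus cells and 3 of sorted GFPminus cells taken through the same dissociation, gave each row a sort ratio. They belonged to neither side of the comparison but, like all 30 libraries, entered the fit that set the spread of each row.

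All animals were strain JM149, which carries the integrated transgene caIs71: the elt-2 promoter driving green fluorescent protein fused to a histone, with the unc-54 3′ untranslated region, beside rol-6(su1006), a mutant collagen allele that makes worms roll. The promoter marks the intestine, so GFPplus cells are labelled as intestine and GFPminus cells as everything else. No library of the comparison came from a strain without the transgene. Worms were grown on plates of OP50 bacteria. The labels call the replicates biological but do not say how the cultures were separated, so p-values measure the spread between these libraries.

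The worm intestine is a tube of large epithelial cells that digests and absorbs food, stores fat and, in adults, makes yolk. Its cells carry an apical brush border and are joined by tight apical junctions, and each holds several copies of the genome. ELT-2, a GATA-binding transcription factor, is the main regulator of intestinal genes once the tissue has formed. A larva is enclosed in a collagen cuticle, which reducing agents and detergent loosen before a protease can release cells.

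The rows of the count table carry no gene identifier, so no row could be named as a gene, the intestinal label could not be checked against marker genes, and elt-2 itself could not be looked up. Rows were separated instead by the L3 sort. Of 16758 rows tested, 3144 (18.8%) were called higher in GFPplus than in GFPminus cells, 3178 (19%) were called lower, and 10436 were not called, at an edgeR adjusted p under 0.05 (37.7% called in all). These are referred to as GFPplus-enriched rows, GFPminus-enriched rows and rows not called in the sort. The contrast behind them holds no library of the dissociated cells or whole larvae, but its estimate of spread came from all libraries. A fit of the 6 sorted L3 libraries alone gave 3015 GFPplus-enriched and 3413 GFPminus-enriched rows, with median log2 fold changes on dissociation of -1.36 and 0.59. Fewer intestinal cells and less RNA per intestinal cell cannot be told apart in any of these bulk libraries.

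Totals were 17941198 to 24406261 counts in dissociated L3 cells and 20537830 to 25494842 in whole L3 larvae, so depth overlapped. At 1 CPM (counts scaled by the library total) or more, 12862 ± 327 rows were detected in dissociated cells and 12803 ± 76.5 in whole larvae (SD, n = 3 each). Replicates correlated across 16758 rows at r = 0.97 to 0.98 within dissociated cells and 0.98 to 0.99 within whole larvae, and dissociated with whole libraries at 0.9 to 0.93. Dissociated cells correlated with GFPminus cells at 0.92 to 0.98 and with GFPplus cells at 0.88 to 0.93. Whole larvae had the other order, at 0.91 to 0.95 with GFPplus cells and 0.83 to 0.89 with GFPminus cells. These correlations share all rows and their abundance range and are given as a description.

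GFPplus-enriched rows took a smaller part of the RNA in dissociated cells than in whole larvae. Their share of counts was 9.11%, 13.4% and 12.3% in the dissociated libraries, against 21.1%, 23.7% and 23.1% in the whole-larva libraries. The groups did not overlap, and the mean share was 11.6 ± 2.24% in dissociated cells and 22.7 ± 1.35% in whole larvae (SD, n = 3 each), a ratio of 0.512. Sorted GFPplus cells had 26.6 ± 2.09% and GFPminus cells 6.57 ± 0.256% of their counts in the same rows, which the choice of rows fixes. An exact two-sided permutation test of dissociated against whole libraries gave p = 0.1, the smallest value that 3 against 3 allows.

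The share lost was spread over many rows. Of the 3144 GFPplus-enriched rows, 2559 had a lower mean CPM in dissociated cells than in whole larvae, and together these rows lost 12.3 percentage points of the counts while the others gained 1.25. The single row with the largest loss made up 3.38% of that sum, the 10 largest losses 15.1% and the 100 largest 49.5%.

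The other classes took up the difference. GFPminus-enriched rows held 30%, 24.8% and 30.6% of counts in the dissociated libraries, against 22.7%, 21.8% and 23% in the whole-larva libraries. Rows not called in the sort held 60.9%, 61.8% and 57.1% in dissociated cells, against 56.2%, 54.5% and 53.9% in whole larvae. Neither class overlapped between the groups, and each exact permutation p was again 0.1. The 3 classes hold all tested rows, so their shares are bound to each other and these p-values are not separate evidence. Dissociated replicate 2 stood nearest to whole larvae in both sorted classes, with the highest GFPplus-enriched and the lowest GFPminus-enriched share of the 3 dissociated libraries.

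**Figure D1:**
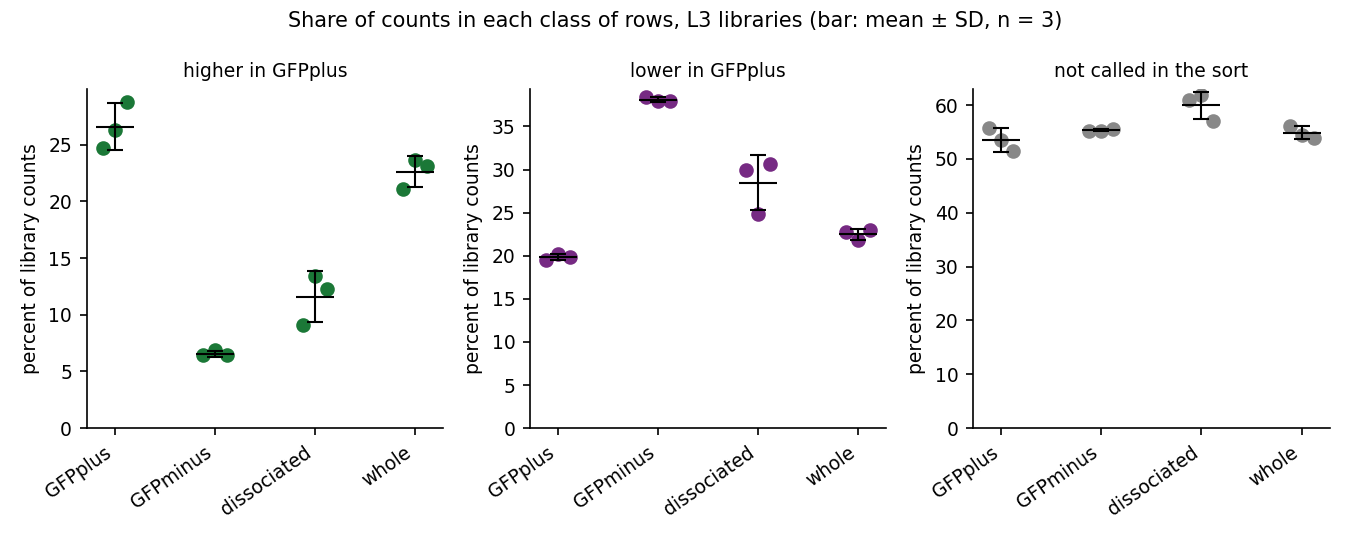
Percent of each L3 library's counts (y axis, from 0) in GFPplus-enriched rows (left), GFPminus-enriched rows (middle) and rows not called in the sort (right), by fraction. Points are libraries and bars are the mean ± SD of 3; dissociated cells lie at 9.11 to 13.4% in the left panel, below whole larvae at 21.1 to 23.7%.

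A second measure took its rows from contrasts between embryo and L1 libraries, with the spread again from all libraries. The 1897 rows called higher in GFPplus cells of both the embryo and the first larval stage (L1) were summed. The embryo sort called 18.8% of rows higher and 26.1% lower (44.8% in all), and the L1 sort 19.2% and 13.6% (32.8% in all). Each library's share in the set was placed on a line from 0, the mean of the 3 L3 GFPminus libraries, to 1, the mean of the 3 L3 GFPplus libraries. Dissociated libraries stood at 0.0571, 0.226 and 0.183, and whole-larva libraries at 0.718, 0.86 and 0.875. The means were 0.155 ± 0.0879 in dissociated cells and 0.818 ± 0.0864 in whole larvae (SD, n = 3 each, exact permutation p = 0.1). With rows from a fit of the sorted embryo and L1 libraries alone the positions were 0.148 ± 0.09 in dissociated cells and 0.811 ± 0.0851 in whole larvae (SD, n = 3 each). The line describes this set of rows only. In GFPminus-enriched rows the mean share of dissociated cells, 28.4 ± 3.18%, lay between the 19.8 ± 0.345% of GFPplus and the 38.1 ± 0.233% of GFPminus cells (SD, n = 3 each), well short of the GFPminus value. The 981 rows called lower in GFPplus cells of both embryo and L1 were placed otherwise. There dissociated cells, at 13.3 ± 1.91%, lay above both GFPminus cells, at 11.1 ± 0.636%, and GFPplus cells, at 7.45 ± 1% (SD, n = 3 each). Dissociated libraries, at 11.3 to 15.1%, overlapped GFPminus libraries, at 10.5 to 11.8%.

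Row by row, 3242 of 16758 rows differed between dissociated cells and whole larvae in edgeR's quasi-likelihood test, with 1316 higher (7.85% of all rows) and 1926 lower (11.5%) in dissociated cells. The median log2 fold change was 1.41 among the higher and -2.28 among the lower rows, and 993 and 1761 of them changed at least 2-fold. In 3222 of the 3242 the 3 dissociated libraries all lay beyond the 3 whole-larva libraries in CPM. Over all tested rows, called or not, 33.2% lay higher and 22.5% lower without overlap. The median of all rows was 0.04 under TMM scaling and 0.24 with totals as the only scaling, where 58.6% of calls were higher, against 40.6% under TMM. Class medians are therefore also given relative to the median of all rows. The count of calls was 6377 when the fit held only the 6 compared libraries. It was 2131 and 1832 without dissociated replicates 1 and 3, and 1814 and 1925 without whole-larva replicates 1 and 2.

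The 1926 rows that fell belonged mostly to the GFPplus-enriched class. Of its 3144 rows, 1433 (45.6%) were lower in dissociated cells, against 11.5% of all rows, and 26 (0.827%) were higher, against 7.85%. The class median log2 fold change was -1.47, with an interquartile range of -2.45 to -0.45, and -1.51 relative to all rows. The 1433 rows had median levels of 5.95 CPM in dissociated cells and 26.7 CPM in whole larvae, beside 27.2 CPM in GFPplus and 1.74 CPM in GFPminus cells. The class made up 74.4% of all lower calls. Without each compared library in turn, the 1433 became 962 to 1225.

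The fall grew with the sort ratio. Rows with a log2 sort ratio (GFPplus over GFPminus) of 1 to 2 had a median log2 fold change on dissociation of -0.52, and 16.7% of the 2520 were lower. At a sort ratio of 2 to 4 the median was -1.49, with 33.8% of 1284 rows lower. Above 4 it was -2.63, with 65.4% of 1071 rows lower and 0 higher. Below zero the medians turned positive, at 0.63 for a sort ratio of -2 to -1 and 1.36 for -4 to -2, where 18.9% and 19.7% of rows were higher. Between -1 and 1 the median was 0.09, with 7.19% of 8377 rows higher and 4.39% lower.

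**Figure D2:**
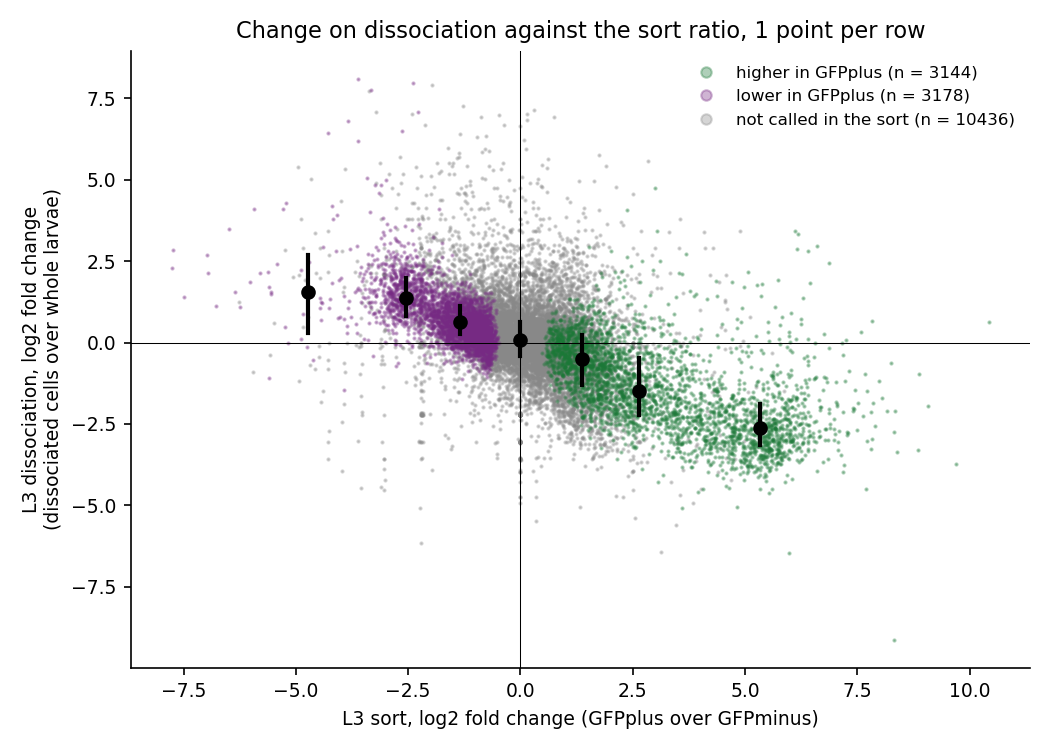
Each point is a row, with its log2 fold change of GFPplus over GFPminus L3 cells on the x axis and of dissociated L3 cells over whole L3 larvae on the y axis, coloured by sort class. Black dots and bars are the median and interquartile range in 7 bins of the sort ratio; the medians run from 1.55 in the lowest bin to -2.63 in the highest.

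Rows with a sort ratio above 4 that were not called on dissociation had low levels. These 371 rows had a median of 2.52 CPM in GFPplus cells, 0.33 CPM in dissociated cells and 0.872 CPM in whole larvae, and a median log2 fold change of -1.55. The 700 called rows had medians of 22.1, 2.9 and 18.4 CPM in the same fractions, and a median log2 fold change of -2.96. Across 4 bins of mean abundance, the class median of GFPplus-enriched rows was -1.92 in the lowest, -1.96 and -1.29 in the middle bins and -0.88 in the highest, while the share called lower was 24.1%, 52.6%, 49.6% and 45.7%.

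The 26 GFPplus-enriched rows that rose were weakly sorted, with a median log2 sort ratio of 1.32, against 3.91 in the 1433 rows that fell. Their median levels were 66.6 CPM in dissociated cells and 28.3 CPM in whole larvae, beside 101 CPM in GFPplus and 31.9 CPM in GFPminus cells. Their median log2 fold change was 1.34.

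Row 11616 had the largest fall in this class among called rows with a mean of at least 10 CPM whose groups did not overlap. It had 10.7, 12.4 and 1.81 CPM in dissociated cells, against 228, 249 and 231 CPM in whole larvae. The whole-larva libraries were alike, and every dissociated library lay far below them. The log2 fold change was -5.05 ± 0.977 (SE, edgeR adjusted p = 0.001). The row had 161, 37.5 and 13.3 CPM in GFPplus and 4.6, 1.09 and 0.597 CPM in GFPminus cells, so each sorted GFPplus library also lay below each whole-larva library. The whole-larva mean exceeded the GFPplus mean and also the GFPminus mean in 870 of the 3144 GFPplus-enriched rows (27.7%), which is near the 27.4% of all rows.

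The GFPminus-enriched class moved the other way. Of its 3178 rows, 694 (21.8%) were higher in dissociated cells, against 7.85% of all rows, and 12 (0.378%) were lower, against 11.5%. The class median log2 fold change was 0.62, or 0.58 relative to all rows. The 694 rows had median levels of 36.8 CPM in dissociated cells and 13.6 CPM in whole larvae, beside 18.7 CPM in GFPplus and 52.5 CPM in GFPminus cells. The whole-larva mean lay below the GFPplus mean and also below the GFPminus mean in 1590 of the 3178 rows (50%), against 32.6% of all rows. The 694 were 429 and 234 without dissociated replicates 1 and 3, 268 and 305 without whole-larva replicates 1 and 2, and 1183 with library totals alone.

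Row 3831 had the largest rise in this class among called rows with a mean of at least 10 CPM whose groups did not overlap. It had 50, 10.3 and 8.68 CPM in dissociated cells, against 0.341, 0.824 and 2.43 CPM in whole L3 larvae. The groups did not overlap, although replicates varied widely in both. The log2 fold change was 4.11 ± 0.808 (SE, edgeR adjusted p = 0.00117). GFPplus cells had 6.5, 14.5 and 3 CPM and GFPminus cells 40.4, 9.02 and 27.3 CPM, so the sorted fractions overlapped. Its place in the class was marginal, at an edgeR adjusted p of 0.0493 in the L3 sort. In embryos the row was abundant in both fractions, with 227 and 370 CPM in dissociated cells and 330 and 272 CPM in whole embryos.

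The 12 GFPminus-enriched rows that fell were abundant in every fraction. Their median level was 874 CPM in dissociated cells and 1470 CPM in whole larvae, with 851 CPM in GFPplus and 1340 CPM in GFPminus cells. The falls were small, with log2 fold changes of -1.06 to -0.7. In the embryo sort, which shares no library with the L3 comparison, 10 of the 12 were higher in GFPplus cells, against 18.8% of all rows.

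Rows not called in the sort changed in both directions. Of 10436 rows, 596 (5.71%) were higher and 481 (4.61%) lower in dissociated cells, against 7.85% and 11.5% of all rows, and the class median was 0.07, or 0.03 relative to all rows. The class nonetheless held 45.3% of all higher and 25% of all lower calls. The 596 were 373 and 328 without dissociated replicates 2 and 3, 220 and 279 without whole-larva replicates 1 and 2, and 1026 with library totals alone. The 481 were 211, 188 and 157 without each dissociated replicate, 174 and 209 without whole-larva replicates 1 and 2, and 306 with library totals alone.

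The 596 rows that rose had a median of 36.6 CPM in dissociated cells and 9.36 CPM in whole larvae, with 24.2 CPM in both GFPplus and GFPminus cells. Per library, their median log2 CPM was 4.77, 5.54 and 4.97 in dissociated cells, against 3, 3.2 and 3.46 in whole larvae. It was 4.06 to 4.77 in GFPplus and 4.31 to 4.74 in GFPminus cells. All 9 libraries made from dissociated animals thus had a higher median than any whole-larva library. Rows were called against the same whole-larva libraries, so this placing of the sorted fractions is a description.

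The 481 rows that fell showed the reverse placing. Their median was 19 CPM in dissociated cells and 46.7 CPM in whole larvae, with 23.3 CPM in GFPplus and 14 CPM in GFPminus cells. Per library, the median log2 CPM was 4.3, 4.26 and 4.19 in dissociated cells, against 5.61, 5.63 and 5.41 in whole larvae. Sorted cells gave 3.79 to 4.85 in GFPplus and 3.61 to 3.85 in GFPminus libraries, all below whole larvae.

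**Figure D3:**
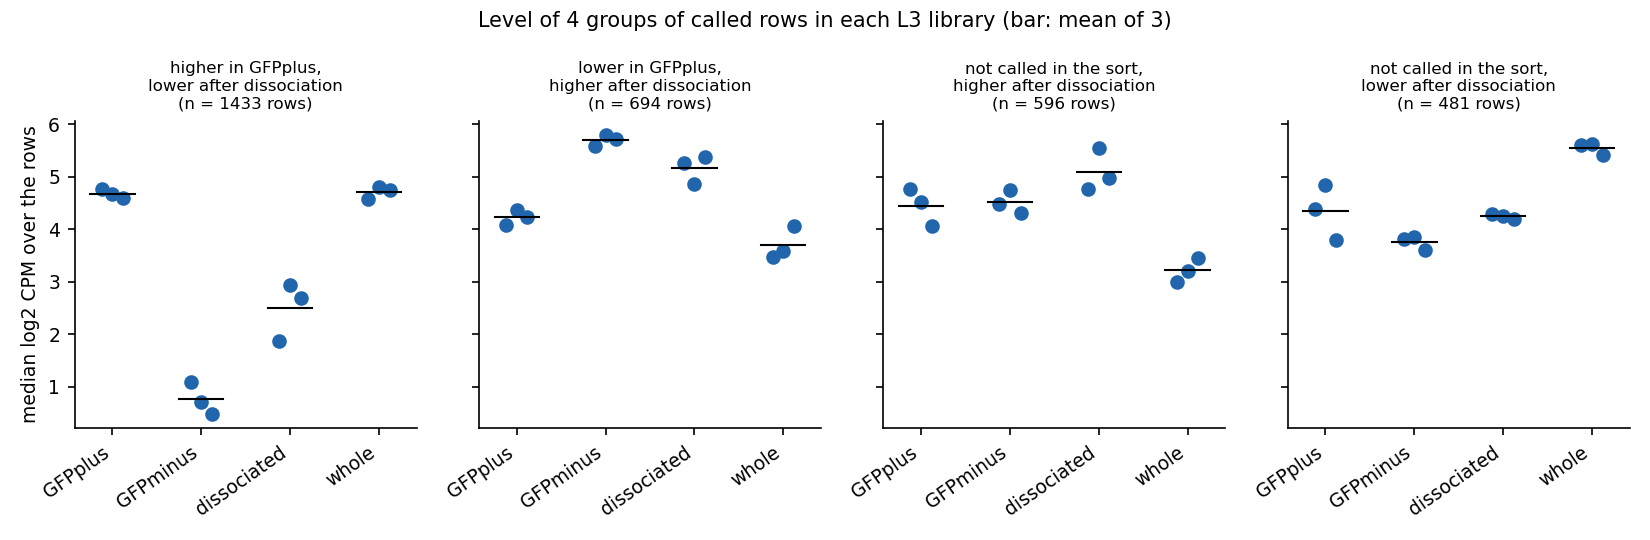
Median log2 CPM (y axis) over 4 groups of called rows in each of the 12 L3 libraries, by fraction, with a bar at the mean of 3 libraries. GFPplus-enriched rows that fell have whole-larva medians of 4.57 to 4.8 beside GFPplus medians of 4.59 to 4.76, while in the 2 right panels both sorted fractions lie on the side of dissociated cells.

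Row 15500 had the largest rise among rows not called in the sort, within the same limits of 10 CPM and no overlap. It had 18.4, 27.2 and 21 CPM in dissociated cells, against 0.0487, 0.471 and 0.467 CPM in whole larvae. The dissociated libraries were alike and all well above the whole-larva ones, where the lowest value is that of a single read. The log2 fold change was 5.83 ± 0.756 (SE, edgeR adjusted p = 2.13e-05). GFPplus cells had 29.9, 6.05 and 3.91 CPM and GFPminus cells 24.3, 41.4 and 22.5 CPM. Its log2 sort ratio was -1.37 at L3 (edgeR adjusted p = 0.0743) and -0.56 in embryo (edgeR adjusted p = 0.439). In the L1 sort it was called lower in GFPplus cells, at -3.2 (edgeR adjusted p = 0.00252). At L1, with other libraries, it had 22.1 and 46.2 CPM in dissociated cells, against 0.509 and 2.19 CPM in whole larvae.

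Row 15073 had the largest fall outside the GFPplus-enriched class, within the same limits of 10 CPM and no overlap. It had 2.21, 3.29 and 2.12 CPM in dissociated cells, against 34.3, 32.5 and 25.3 CPM in whole larvae. The groups were far apart and each was tight. The log2 fold change was -3.81 ± 0.885 (SE, edgeR adjusted p = 0.00467). GFPplus cells had 2.17, 12.9 and 0.455 CPM and GFPminus cells 2.04, 1.33 and 0.683 CPM, all below whole larvae. At L1 it had 0.0494 and 0.134 CPM in dissociated cells, against 5.46 and 75 CPM in whole larvae.

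**Figure D4:**
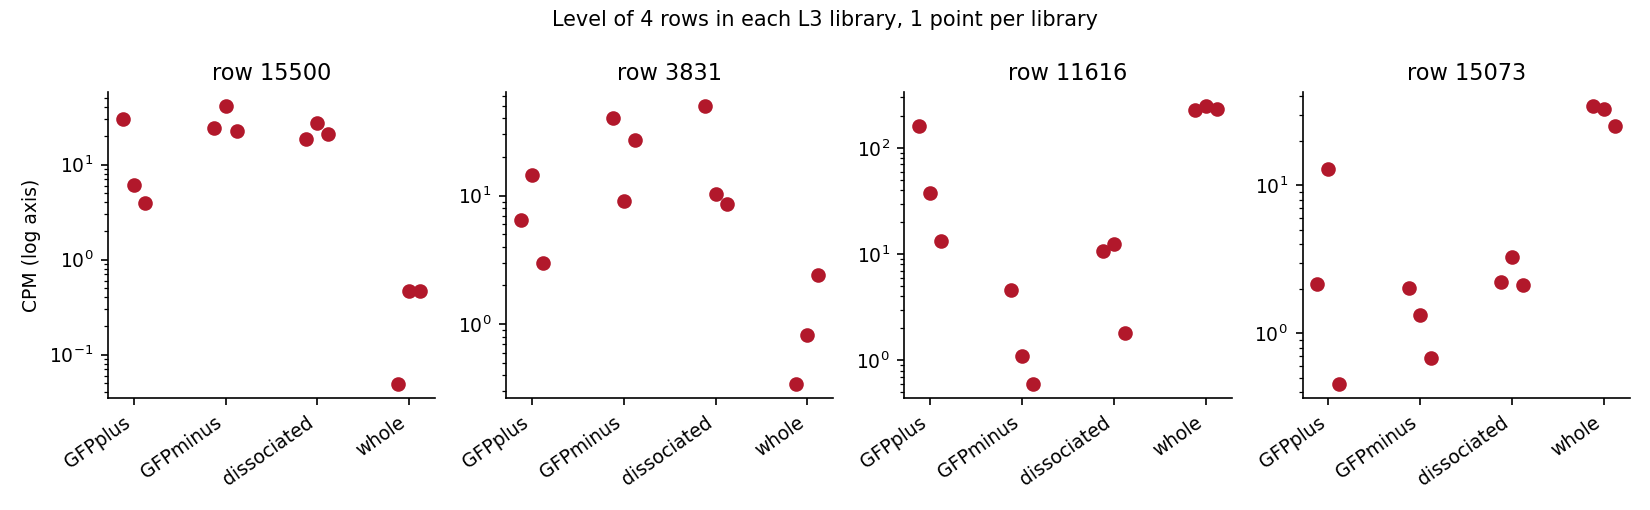
CPM on a log axis of the 4 described rows in each of the 12 L3 libraries, 1 point per library, by fraction. In rows 15500 and 3831 every dissociated library lies above every whole-larva library, and in rows 11616 and 15073 every one lies below.

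The row with the largest share of counts in any of the 6 libraries was not called in the sort either. It took 1.34%, 1.27% and 1.03% of counts in dissociated cells, against 0.222%, 0.253% and 0.374% in whole larvae. Exact Clopper-Pearson 95% intervals, which cover counting error only, were no wider than 1.33 to 1.34% in the first of these libraries. It was higher in dissociated cells, with a log2 fold change of 1.89 ± 0.518 (SE, edgeR adjusted p = 0.0135), but missed the threshold without whole-larva replicate 1, at an adjusted p of 0.0527. GFPplus cells gave it 0.618%, 0.353% and 0.62%, and GFPminus cells 0.637%, 1.19% and 0.926%. In the embryo and L1 sorts it was called lower in GFPplus cells, with log2 fold changes of -1.47 and -4.67.

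Some rows crossed a detection limit. At 1 CPM, 223 rows passed in all 3 dissociated libraries and in no whole-larva library, of which 5 were GFPplus-enriched, 68 GFPminus-enriched and 150 not called in the sort. The reverse held for 259 rows, with 187 GFPplus-enriched, 0 GFPminus-enriched and 72 not called in the sort. Of all 16758 tested rows, 18.8% were GFPplus-enriched, 19% GFPminus-enriched and 10436 rows not called in the sort. No row with at least 1 CPM in every library of one group had 0 counts in the whole other group, so these are differences of level.

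How much of the row-by-row change a shift along the GFPminus to GFPplus line would give was then computed. For each row the mean GFPplus and GFPminus profiles were mixed at the mean positions of 0.155 for dissociated cells and 0.818 for whole larvae, and the log2 ratio of the 2 mixtures, with 1 CPM added, was set beside the observed ratio on the same scale. The positions come from these same 6 libraries and from rows high in GFPplus cells, so closeness to the mixture is partly built in for GFPplus-enriched rows and is given as a description. Of the 1433 GFPplus-enriched rows that fell, 1304 (91%) had an observed ratio within 2-fold of the mixture's, with medians of -1.75 observed and -1.52 from the mixture. Of the 694 GFPminus-enriched rows that rose, 639 (92.1%) did, with medians of 1.3 and 0.8. Among all tested rows 85.3% did, many of which changed little. Whether called or not, 2449 of the 3144 GFPplus-enriched rows (77.9%) did, and 566 lay more than 2-fold above the mixture, with class medians of -0.86 observed and -1.16 from the mixture. Among rows not called in the sort, 233 of the 596 that rose (39.1%) and 279 of the 481 that fell (58%) were within 2-fold. Their medians from the mixture were 0.1 and -0.44, beside 1.3 and -1.3 observed. These rows were chosen for having no sort call and a called change, so their distance from the mixture is partly built in.

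Of the rows that rose, 444 lay more than 2-fold above the mixture's ratio. Of those that fell, 339 lay more than 2-fold below it and 1 above it. Rows were called on the same 6 libraries as the observed ratios, so these directions are partly built in. The 444 consisted of 26 GFPplus-enriched rows, 55 GFPminus-enriched rows and 363 not called in the sort, and had median levels of 61.9 CPM in dissociated cells and 16.8 CPM in whole larvae, beside 43 CPM in GFPplus and 42.1 CPM in GFPminus cells. The 339 consisted of 128, 9 and 202 rows of the same classes, and had median levels of 7.89 CPM in dissociated cells and 47.1 CPM in whole larvae, beside 16.9 CPM in GFPplus and 2.88 CPM in GFPminus cells. Whether the dissociation steps, the time they took or cells lost in both sorted fractions moved these rows was not tested.

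The same rows were read in the L1 dissociation, which used the same protocol and other libraries. Of the 339 rows below the mixture, 129 (38.1%) were lower in dissociated L1 cells than in whole L1 larvae and 0 were higher, against 6.65% and 3.15% of all rows (9.8% called in all). Of the 444 rows above the mixture, 55 (12.4%) were higher at L1 and 33 (7.43%) lower. Among rows within 2-fold of the mixture, 176 of the 872 that rose (20.2%) were higher at L1, and 172 of the 1586 that fell (10.8%) were lower. In the L1 sort 159 of the 444 (35.8%) were lower in GFPplus cells and 40 (9.01%) higher, against 13.6% and 19.2% of all rows. Of the 339, 68 (20.1%) were lower and 105 (31%) higher in that sort. The L1 groups had 2 libraries each, and replicates 1 and 3 came from different sequencers.

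Part of the rows that rose at L3 were called higher at the other stages too. Of the 1316, 231 were higher in dissociated L1 cells, which is 17.6% of the L3 list and 43.8% of the 528 rows of the L1 list (3.15% of all rows). In embryo, where 22 rows rose (0.131%) and 69 fell (0.412%, or 0.543% called in all), 9 of the 1316 did, and 2 rows rose at all 3 stages. The embryo groups had 2 libraries each, against 3 each at L3, so fewer calls need not mean a smaller effect.

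The change of the L3 sort classes on dissociation differed in size between stages. GFPplus-enriched rows had median log2 fold changes of -0.08 (embryo), -0.53 (L1) and -1.47 (L3), beside medians of all rows of -0.05, -0.03 and 0.04. GFPminus-enriched rows had medians of -0.07, 0.7 and 0.62. The classes were set by the L3 sort. Of the 1433 GFPplus-enriched rows that fell at L3, 74.6% were higher in the embryo sort and 84.7% in the L1 sort, against 18.8% and 19.2% of all rows. Among the 1685 GFPplus-enriched rows not called on L3 dissociation, 50.7% and 57.1% were. The median level of the 1433 rows was 6.41 CPM in whole embryos, 22.9 CPM in whole L1 larvae and 26.7 CPM in whole L3 larvae. How far this choice of rows sets the difference between stages was not tested. Embryo cells were released by chitinase (20 min), pronase E (5 min) and passage through a needle, so stage and protocol cannot be told apart against embryo. The embryo groups had 2 libraries each, so a fit without any of these left a single library in its group. The difference L3 minus embryo was called in 653 rows (3.9%), with 430 negative among the GFPplus-enriched rows (13.7%, against 2.82% of all rows) and 122 positive among the GFPminus-enriched rows (3.84%, against 1.08%). The 653 were 107 to 599 without single libraries, and the lowest count came without whole-embryo replicate 3. It was also 142 without dissociated embryo replicate 1 or whole-embryo replicate 2, 339 and 402 without dissociated L3 replicates 1 and 3, and 399 and 373 without whole L3 replicates 1 and 2.

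The difference L3 minus L1 was called in 451 rows (2.69%), of which 102 GFPplus-enriched rows were negative (3.24% of the class, against 0.692% of all rows) and 303 rows not called in the sort were positive (2.9%, against 2% of all rows). That count was 0 without either dissociated L1 library, 5 without whole L1 replicate 3 and 1487 without whole L1 replicate 1. The edgeR test gave 2685 rows at an unadjusted p under 0.05, against 2043 and 2622 without dissociated L1 replicates 1 and 3, and 3824 and 1399 without whole L1 replicates 1 and 3. Each fit without an L1 library left a single library in its group, so its count shows only how unstable the 451 were. Without each L3 library in turn other than dissociated replicate 3, the 451 became 151 to 293.

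**Figure D5:**
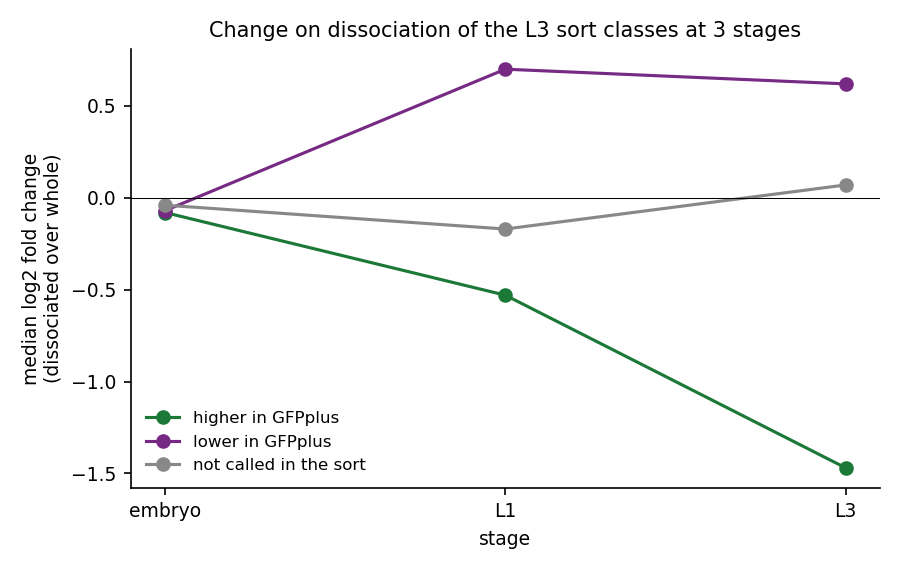
Median log2 fold change of dissociated cells over whole animals (y axis) in the 3 L3 sort classes at embryo, L1 and L3 (x axis), from 1 fit. GFPplus-enriched rows stand at -0.08, -0.53 and -1.47. The classes were set by the L3 sort, and embryos had another dissociation protocol than larvae.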

How the data were processed

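The authors deposited whole-number raw counts per gene from paired-end libraries of polyadenylated RNA, in 16762 rows without identifiers. Per the submitters' processing notes, the tools were featureCounts 1.6.4, DESeq2 1.28.1, HISAT2 2.1.0, deepTools 3.2.0, fastp 0.20.0 and SAMtools 1.9 and the build was ce11, with no role or order given. Counting options are not given in the sources used here, so how reads shared by overlapping or antisense genes, or by close copies, were assigned is unknown. Normalized tables and the deposited annotation were not used here, and 4 labelled libraries were not analysed here.

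The counts went into edgeR 4.0.16 (R 4.3.3). After filterByExpr at a minimum count of 10, 16758 rows were scaled by TMM and tested in 1 quasi-likelihood model of 30 libraries in 12 groups (18 residual degrees of freedom). Adjusted p-values are Benjamini-Hochberg over all tested rows, and calls are at 0.05. DESeq2 1.42.0 and limma 3.58.1 served as alternatives. Log2 CPM used a prior count of 2, and plain CPM used library totals. The SE of a fold change is approximate: the absolute log2 fold change divided by the square root of the F statistic. The procedure was tested on simulated data. The described rows were the highest or lowest fold changes in each class among called rows of at least 10 CPM whose groups did not overlap. The marker lists planned for named genes could not be applied. Members, classes and rules were chosen with earlier results of these data known.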

Additional observations from a re-analysis of the deposited data

Results flagged for a closer look

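The difference of the dissociation effect between stages was called in 451 rows for L3 minus L1 and in 653 rows for L3 minus embryo, by an interaction term in the edgeR fit. The L3 minus L1 count rests on single L1 libraries, as given above. None of the described rows passed either test of the difference, which does not show that their effects were alike.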

How the results depend on the processing

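Under each alternative run for them, the median of GFPplus-enriched rows stayed below 0, that of GFPminus-enriched rows stayed above 0, and the described rows kept their sign. Counts of calls moved, and the balance of calls turned under library totals, to 2279 higher and 1612 lower rows. Stage medians and mixture counts were computed in 1 setting. In the order all calls, higher, lower, GFPplus-enriched lower, GFPminus-enriched higher, and not called in the sort higher and lower, an adjusted p under 0.01 gave 1410, 368, 1042, 932, 198, 160 and 108, and glmTreat with a minimum fold of 2 gave 818, 98, 720, 699, 24, 71 and 21. In the same order without the GFPplus-enriched count, the 12 L3 libraries alone gave 5423, 2380, 3043, 1162, 1177 and 1216, and the 6 compared libraries alone 6377, 2878, 3499, 1344, 1472 and 1518. Deviations of equal replicate numbers correlated at 0.17, 0.08 and 0.18, and those of unequal numbers at -0.31 to 0.14. Dissociated replicates 1 and 3 correlated best with the equal number, and dissociated replicate 2 with whole-larva replicate 1. Such weak correlations cannot decide whether replicate numbers pair the samples. A replicate block on the 6 libraries gave 6655, 3009, 3646, 1455, 1488 and 1583, and a replicate block on all libraries moved 1 of these counts by over 1.5 times, rows not called in the sort that fell, to 724. Library totals gave 1183, 1026 and 306 in the last classes and a median of all rows of 0.24. DESeq2 gave 2018 higher rows and 1065, 910 and 923.

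For L3 minus L1 the counts were 90 (adjusted p under 0.01), 1207 (DESeq2), 191 (glmTreat) and 858 without the HiSeq X-ten libraries, an alternative added after seeing the data, as was leaving out embryo and L1 libraries. For L3 minus embryo they were 132, 1554 and 75. Classes of at least 4-fold gave 208 GFPminus-enriched higher rows, 1101 and 813 in the remainder, medians of -2.14 and 1.42, and share differences of -8.24 and 1 percentage points, against -11.1 and 5.92. Classes from the embryo and L1 sorts gave 134, 1170 and 786, with a share difference of -8.43. These rules also shrank the GFPplus-enriched class from 3144 rows to 1989 and 1897, and the GFPminus-enriched class from 3178 to 830 and 981. Of the 981, 134 (13.7%) were higher and 88 (8.97%) lower, against 7.85% and 11.5% of all rows. The fall was thus not as rare as the 0.378% in the class from the L3 sort. With GFPplus-enriched rows as the set, dissociated cells stood at 0.252 on the line and whole larvae at 0.803.

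Leaving out 1 library at a time gave 1814 to 2840 calls, 498 to 1274 higher and 1181 to 1566 lower. By class it gave 962 to 1433 GFPplus-enriched lower rows, 234 to 808 GFPminus-enriched higher rows, and 220 to 711 and 157 to 625 for rows not called in the sort. The L3 minus L1 count ran from 0 to 1487 and the L3 minus embryo count from 107 to 599. The share difference ran from -12 to -9.8 for GFPplus-enriched rows and the difference in position from -0.712 to -0.613. The cause of these moves was not tested. Of the 5 described rows, 4 stayed called in all 18 settings. How calls depend on depth was not tested. Fits of the sorted libraries alone, also added after seeing the data, moved none of the class counts by over 1.5 times.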
